A study of Mus musculus with 16 samples.

Results

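*Cd69*, *Cd5*, *Nr4a1*, *Nr4a3*, *Egr1*, *Egr2* and *Egr3* are genes whose mRNA is induced when the T cell receptor of a developing thymocyte binds self peptide on MHC, and they are widely read as a sign that positive selection is under way. These 7 genes were chosen by name, with earlier results of these data known. They are 7 of the 24974 genes listed for both cell types studied. All 7 passed the filter on low counts in every comparison.

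The study asked what loss of Tox4, an HMG box protein, does to gene expression in mouse thymocytes. Strand-specific RNA-seq libraries were made from DP thymocytes (cells with CD4 and CD8 on their surface), with 3 control and 3 cKO samples, and from CD8 thymocytes, with 5 control and 5 cKO samples. Control samples carried floxed *Tox4* (Tox4;F/F) and no Cre. The cKO samples carried the same floxed alleles with Cre under the proximal *Lck* promoter, labelled Tox4;F/F;Lck+ for DP and Tox4;F/F;Lck-cre for CD8 cells, and this Cre acts from the DN3 stage onward, in T lineage cells. The methods describe C57BL/6 mice, littermates matched by sex and studied as young adults. Both cell types were sorted by flow cytometry, CD8 cells as positive for TCRβ and CD8, and their counts stand in separate deposited tables. The study calls its replicates biological, but the labels do not say which mice gave which samples, so the p-values measure the spread between these samples. The total of counted fragments ran from 16524506 to 18484568 in DP control and from 14583336 to 25981683 in DP cKO samples. The CD8 libraries were smaller, with 9420085 to 13530783 fragments in control and 8514135 to 11828492 in cKO samples.

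Positive selection is the step at which DP thymocytes that bind self peptide on MHC weakly are kept alive and go on to become single positive CD4 or CD8 cells. The receptor signal runs through calcium and NFAT and through Ras and ERK, and it switches on transcription factors of the Egr and Nr4a families within a short time, followed by surface proteins such as CD69 and CD5. In a bulk sample, fewer cells that express a gene and less of its RNA per cell cannot be told apart.

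The targeted gene was examined first. Normalized counts of *Tox4*, in CPM (counts scaled to a common library size, with a single TMM scaling of all 16 libraries), were 149, 165 and 173 in the DP control samples and 128, 132 and 129 in the DP cKO samples. The DP groups did not overlap (2-sided exact permutation test, p = 0.1, and 3 samples against 3 allow no smaller p). In CD8 cells they were 195, 193, 205, 208 and 184 CPM in control samples and 172, 190, 179, 239 and 168 CPM in cKO samples. The library labelled cKO replicate 4 lay above every control sample, and the CD8 groups overlapped (exact permutation test, p = 0.675). The deposited counts cover the whole gene and the floxed exons are only a part of it, so these counts are a weak check of the labels, and the label of that CD8 library goes unchecked by *Tox4*. By Western blot the study found the deletion efficient in unsorted and sorted thymocytes, which does not check single libraries.

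The cell types carried the markers of their labels. In DP samples, *Rag1*, which encodes a subunit of the recombinase that cuts receptor genes at this stage, lay between 6353 and 9108 CPM, and *Cd4* between 1553 and 1912 CPM. In CD8 samples, *Rag1* was at most 123 CPM and *Cd4* at most 78.4 CPM, while *Runx3*, which sets the CD8 lineage, lay between 552 and 648 CPM against 28.5 to 46.3 CPM in DP samples. *Cd8a* and *Cd8b1*, also listed for the CD8 lineage, were abundant in both cell types and did not rise. Their means were 1559 and 836 CPM in CD8 control against 2072 and 1473 CPM in DP control samples.

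Several libraries stood apart from others with the same label. The CD8 samples numbered 1 and 2, in both genotypes, had 60.2 to 78.4 CPM of *Cd4* against 3.7 to 10.5 CPM in those numbered 3 to 5, and less *Ccr7*, a chemokine receptor of mature thymocytes, with 311 to 369 CPM against 485 to 798 CPM. The DP samples numbered 1 had 15.7 and 16.8 CPM of *Fos* against 63.2 to 194 CPM in the other DP samples, and 40.4 and 45.8 CPM of *Jun* against 385 to 616 CPM. *Fos* and *Jun* encode the subunits of AP-1 and respond to receptor signals and also to the handling of cells. The library labelled CD8 cKO replicate 4 had 296 CPM of *Fos* against 41.6 to 86.4 CPM in the other CD8 samples. In CD8 control replicate 1, 17741 genes had a count, and each of the remaining CD8 libraries had 13708 to 15054 such genes.

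**Figure D1:**
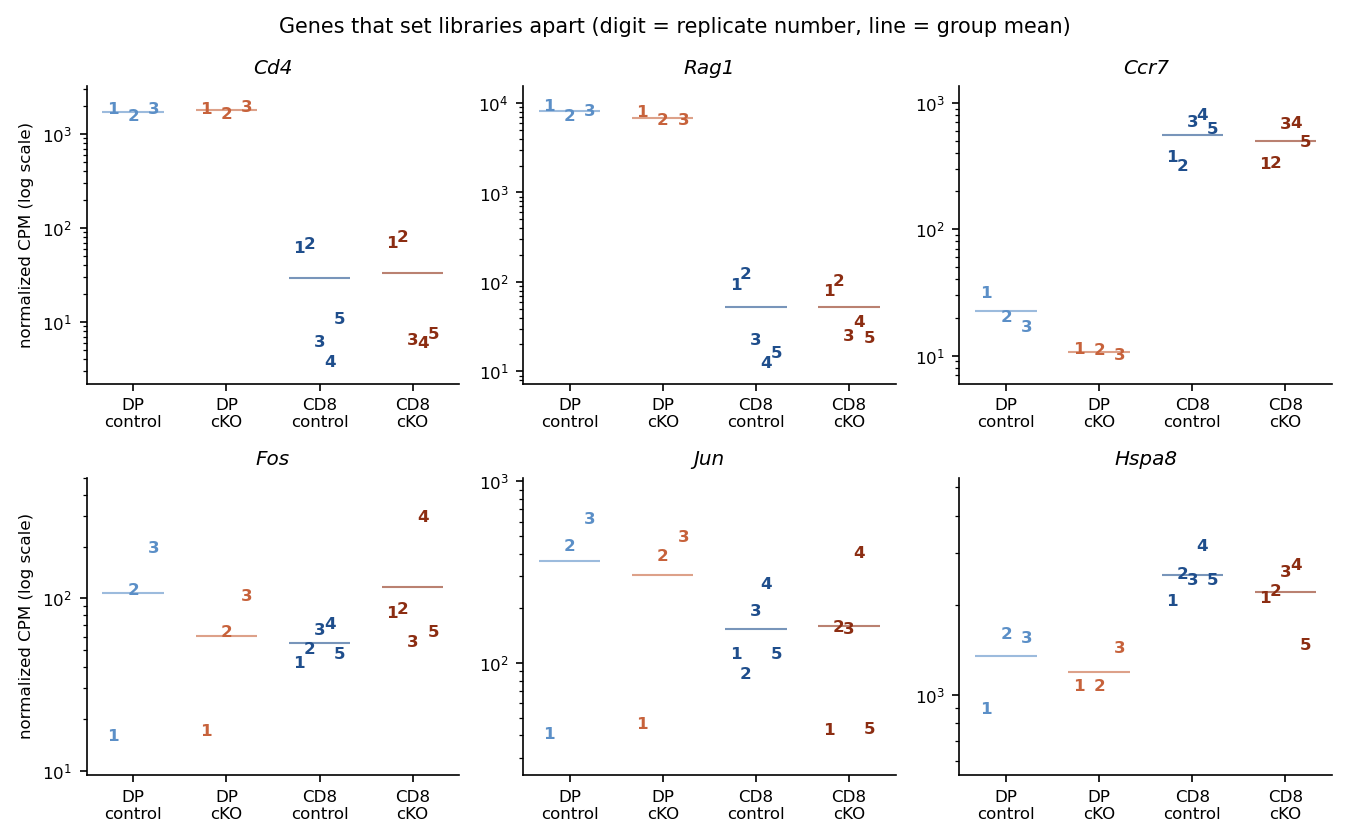
Normalized CPM (log scale) of 6 genes in each of the 16 libraries, by cell type and genotype, with each library drawn as its replicate number and each group mean as a line. In CD8 cells the digits 1 and 2 lie above 3 to 5 for *Cd4* and *Rag1* and below them for *Ccr7*, and in DP cells the digit 1 lies far below 2 and 3 for *Fos* and *Jun*.

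In DP thymocytes all 7 genes were lower in the cKO samples than in the control samples on average, with fold changes between 0.561 for *Nr4a3* and 0.780 for *Cd5*, but in the edgeR test without pairing none passed the threshold. A call required an adjusted p below 0.05, at least a 1.5-fold difference and a mean level of 1 TPM or more (a scaled count corrected for gene length). In the quasi-likelihood test of edgeR, adjusted by Benjamini and Hochberg's method, 17 of the 11748 genes tested were called, which is 0.145%, and 0 of the 7 were among them. At an unadjusted p under 0.05, 6 of the 7 and 1079 of all genes passed. The median log2 fold change was -0.62 for the 7 genes and -0.0011 for all genes tested.

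Among DP samples that share a replicate number, deviations from the group means correlated most for number 1 (0.643). Control replicates 2 and 3 correlated more with cKO replicates 3 and 2 (0.325 and 0.297) than with their own number. The pairing of these samples by number was thus not settled. Every same-numbered DP pair was over the limit of 0.1 set for reading numbers as pairs. A fit with the replicate number as a block was therefore read beside the first fit. With this block, edgeR called 57 genes lower in cKO samples, 0.485% of those tested, and 4 of the 7 were among them, namely *Cd69*, *Nr4a1*, *Nr4a3* and *Egr1*. Without a block, DESeq2, which sets aside genes with few counts, called 68 of 12746 genes lower (0.534%), and *Cd69* and *Nr4a3* were among them. For each of the 7 the cKO sample was below the control sample of the same number in all 3 pairs. Over all genes, 20.2% were lower in all 3 pairs. The 7 genes were read in the same samples and are not separate tests.

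CD69 and CD5 are the usual surface markers of the response. *Cd69* (mm10 chromosome 6, 129267324 to 129275369) encodes a C-type lectin that binds S1PR1 and holds freshly signalled thymocytes in the thymus. Its level was 55.5, 43.6 and 51.1 CPM in the DP control samples and 34.4, 29.8 and 27.6 CPM in the cKO samples. No cKO sample reached the lowest control sample (exact permutation test, p = 0.1), an arrangement found for 7.20% of all genes tested and for 4 of the 7. On the log2 scale the change was -0.71, with a standard error of 0.14 (edgeR adjusted p = 0.129), and with the block the adjusted p was 0.0235.

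*Cd5* (chromosome 19, 10718143 to 10738974) encodes a scavenger receptor family protein that dampens T cell receptor signalling and whose level follows the strength of that signal. The 3 DP control samples lay close together at 331, 330 and 339 CPM, and the cKO samples had 245, 232 and 304 CPM. The groups did not overlap (exact permutation test, p = 0.1), yet the change was the smallest of the 7, at -0.36 on the log2 scale with a standard error of 0.12 (edgeR adjusted p = 0.346, and 0.0919 with the block). Its fold change of 0.780 was short of the fold limit in either fit.

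*Nr4a1* (chromosome 15, 101266846 to 101274794) and *Nr4a3* (chromosome 4, 48045305 to 48086446) encode the orphan nuclear receptors Nur77 and Nor1, early response genes of the receptor signal that also take part in the death of strongly self-reactive thymocytes. RefSeq promoter sequences (build GRCm38.p6, in the coordinates of mm10) were at hand for 4 of the 7, *Cd5*, *Nr4a1*, *Nr4a3* and *Egr2*, and no entry was at hand for *Cd69*, *Egr1* and *Egr3*. The 250 bases before the start site are shown for *Nr4a1*, *Nr4a3* and *Egr2* because their promoters share a motif, the CRE core TGACG, read on either strand. This core was picked after the sequences were seen. Capitals mark its copies and, in *Egr2*, the CArG box of the serum response element. No annotated exon lies inside these stretches.
*Nr4a1*, chr15:101266596-101266845, plus strand: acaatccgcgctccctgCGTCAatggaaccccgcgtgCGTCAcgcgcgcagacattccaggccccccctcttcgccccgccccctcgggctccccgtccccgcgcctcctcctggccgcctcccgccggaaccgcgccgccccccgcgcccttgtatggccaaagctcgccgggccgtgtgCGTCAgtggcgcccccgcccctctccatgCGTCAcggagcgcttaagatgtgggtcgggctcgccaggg
*Nr4a3*, chr4:48045055-48045304, plus strand: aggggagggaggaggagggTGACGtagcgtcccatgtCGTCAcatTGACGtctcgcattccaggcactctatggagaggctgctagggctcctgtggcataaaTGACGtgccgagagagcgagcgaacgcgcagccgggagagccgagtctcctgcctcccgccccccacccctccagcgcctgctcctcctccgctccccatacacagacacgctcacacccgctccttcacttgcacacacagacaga
*Egr2*, chr10:67537619-67537868, plus strand: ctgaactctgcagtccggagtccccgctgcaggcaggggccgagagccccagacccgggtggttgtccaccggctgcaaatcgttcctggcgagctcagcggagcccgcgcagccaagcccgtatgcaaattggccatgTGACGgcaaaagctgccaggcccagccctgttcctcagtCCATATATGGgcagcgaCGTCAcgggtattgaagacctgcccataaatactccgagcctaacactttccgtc

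The CRE core occurred 4 times in the *Nr4a1* stretch, 4 times in that of *Nr4a3* and 2 times in that of *Egr2*. At least 4 copies were held by 0.137% of the 32851 promoters in the table and at least 2 by 3.90%, many genes having several start sites, while 17.8% held any. The core was picked from these very sequences, so the shares do not test it. The stretches of *Nr4a1*, *Nr4a3* and *Egr2* held 74.4%, 63.6% and 61.6% G or C, against a median of 52.4% over all promoters. The CArG box was in *Egr2* alone of the 4 and in 1.47% of all promoters. The full CRE, TGACGTCA, was in none of the 4 (1.55% of all), nor was the site of the Nr4a receptors, AAAGGTCA (1.34%). The EGR site GCGNGGGCG occurred in *Nr4a1* (4.70% of all), and the NFAT core GGAAA in *Egr2* (55.6%). In *Cd5* none of these motifs was found. A match describes the letters only.

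*Nr4a1* had 160, 248 and 287 CPM in the DP control samples and 103, 173 and 178 CPM in the cKO samples. Those numbered 1 were the lowest of their group in both genotypes, and the groups overlapped, since control replicate 1 lay below cKO replicates 2 and 3 (exact permutation test, p = 0.3). The log2 fold change was -0.62 in both fits, with a standard error of 0.26 (edgeR adjusted p = 0.496) and, with the block, of 0.089 (adjusted p = 0.0159). Within pairs the log2 ratio of cKO to control lay between -0.69 and -0.52.

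*Nr4a3* had the lowest fold change of the 7. It had 49.6, 52.4 and 42.8 CPM in control and 23.3, 26.3 and 31.9 CPM in cKO samples, with no overlap (exact permutation test, p = 0.1). The change was -0.83 on the log2 scale with a standard error of 0.15 (edgeR adjusted p = 0.107, and 0.0245 with the block), and by p it stood at rank 39 of the 11748 genes.

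The Egr zinc finger factors are direct targets of ERK signalling, and Nab proteins act as their co-repressors. *Egr1*, on chromosome 18, had 209, 169 and 159 CPM in the DP control samples and 150, 86.1 and 121 CPM in the cKO samples. The groups did not overlap (exact permutation test, p = 0.1). Its log2 fold change was -0.59, with a standard error of 0.19 (edgeR adjusted p = 0.346), and with the block -0.61 (adjusted p = 0.0409).

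*Egr2* (chromosome 10, 67537869 to 67542188) had 41.1, 20.5 and 17.2 CPM in control and 28.4, 9.80 and 14.2 CPM in cKO samples, and *Egr3* (chromosome 14, 70077445 to 70082613) had 17.7, 10.4 and 12.2 CPM against 11.6, 5.96 and 8.17 CPM. For both genes the samples numbered 1 were the highest of their group, and cKO replicate 1 lay among the control samples, so the groups overlapped (exact permutation tests, p = 0.5 and 0.2). The change of *Egr2* on the log2 scale was -0.59 (edgeR adjusted p = 0.744, and 0.106 with the block) and that of *Egr3* -0.65 (edgeR adjusted p = 0.526, and 0.0826 with the block).

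**Figure D2:**
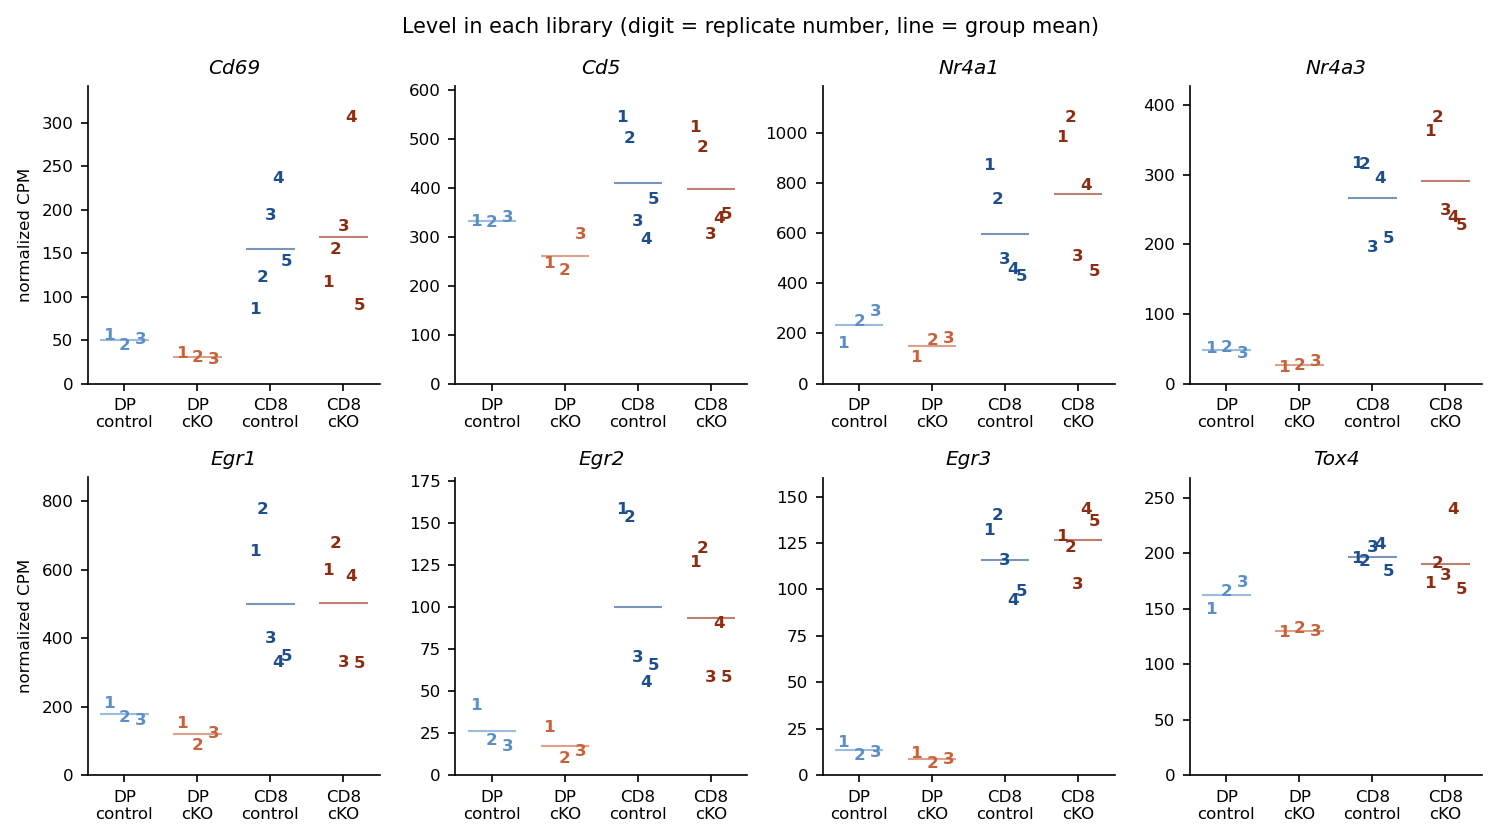
Normalized CPM of the 7 genes and of *Tox4* in each of the 16 libraries, by cell type and genotype, with each library drawn as its replicate number and each group mean as a line. In DP cells the cKO digits of *Cd69*, *Cd5*, *Nr4a3* and *Egr1* lie below all control digits, and in CD8 cells the genotypes overlap for every gene.

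Without both DP samples numbered 1, the log2 fold changes of the 7 lay between -0.73 and -0.33, and edgeR called 72 genes and 0 of the 7. Leaving out any 1 DP library also gave 0 of the 7. Each log2 fold change stayed below 0, but that of *Egr2* ran from -1.12 to -0.12, that of *Egr3* from -0.92 to -0.40 and that of *Nr4a1* from -0.83 to -0.40. The number of genes called was then 8, 0 and 4 without control replicates 1, 2 and 3, and 7, 1 and 1 without cKO replicates 1, 2 and 3.

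Other genes known to be induced by the T cell receptor were followed as a list of 24, of which 23 were tested in DP cells. By edgeR 0 of 23 were called, 7 reached an unadjusted p under 0.05, and DESeq2 called 2. On the log2 scale 17 of 23 were below 0, with a median of -0.37. With the block 3 were called lower, namely *Icos*, a co-stimulatory receptor, with a log2 fold change of -0.98 (edgeR adjusted p = 0.0125), the Egr co-repressor *Nab2* with -0.72 (adjusted p = 0.0459) and *Itm2a*, a membrane protein gene induced during selection, with -0.64 (adjusted p = 0.0236). *Icos* had 28.7, 24.1 and 20.9 CPM in control and 13.0, 12.3 and 11.8 CPM in cKO samples.

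Genes of mature single positive cells moved in the same direction in DP samples. Of the 7 genes on this list, 7 were below 0, with a median log2 fold change of -1.0. *Cd53*, a tetraspanin gene, was called by edgeR, with a log2 fold change of -1.10 (adjusted p = 0.0448), and 5 reached an unadjusted p under 0.05. With the block *Ccr7*, *Il7r* and *Bcl2*, which encode a chemokine receptor, a cytokine receptor and a survival factor, were called as well, at -1.03, -1.0 and -0.67 on the log2 scale (edgeR adjusted p = 0.0240, 0.0166 and 0.0192). Without a block DESeq2 called *Cd53*, *Ccr7* and *Bcl2*, and not *Il7r*. The summed level of the list was 379, 346 and 310 CPM in control and 264, 271 and 253 CPM in cKO samples, and none was at 0. Of the 2 CD4 lineage markers, *Zbtb7b*, which sets the CD4 lineage, had 18.4, 11.5 and 13.9 CPM in control and 6.6, 6.6 and 7.5 CPM in cKO samples (log2 fold change -1.06 and edgeR adjusted p = 0.0319 with the block, 0.122 without), and *Cd4* had a log2 fold change of 0.041 (edgeR adjusted p = 0.946). DESeq2 without a block called *Zbtb7b* as lower. The part of such cells in the result was not tested. The 9 DP stage markers had a median log2 fold change of 0.018, and edgeR called none of them, with 1 at an unadjusted p under 0.05 and 0 by DESeq2.

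Immediate early and heat shock genes, which handling of cells also induces, were a list of 12, of which 11 were tested in DP cells. By edgeR 0 were called and 0 reached an unadjusted p under 0.05, and DESeq2 called 0, but 11 of 11 were below 0, with a median log2 fold change of -0.49. Their summed level was 1235, 2851 and 3193 CPM in control and 1437, 2040 and 2645 CPM in cKO samples, with *Hspa8*, a constitutive chaperone gene, the most abundant. Between 0 and 1 of the 12 were at 0 in a DP sample. Their part in the result was not tested.

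Markers of other cells were low in DP samples. The 5 macrophage and monocyte genes summed to 24.4, 43.0 and 21.3 CPM in control and 18.2, 18.2 and 16.4 CPM in cKO samples, with none at 0, *Itgam* or *Lyz2* the most abundant, and a median log2 fold change of -1.25 (0 called by edgeR, 3 at an unadjusted p under 0.05, and 1 called by DESeq2). The 4 B cell genes summed to 3.6 to 10.2 CPM in control and 2.5 to 4.5 CPM in cKO samples, with *Cd79a* the most abundant. The 4 dendritic cell genes summed to 2.8 to 8.6 and 1.5 to 7.2 CPM, led by *Siglech*, with at most 1 at 0, and the 5 thymic epithelial genes to 5.1 to 8.3 and 3.2 to 4.9 CPM, nearly all from *Epcam*. Erythroid genes summed to at most 0.4 CPM. The 3 gamma-delta and innate-like T cell genes summed to 2.1 to 4.5 CPM in control and 1.5 to 2.0 CPM in cKO samples. By edgeR 1 of them was tested, with a log2 fold change of 0.20. DESeq2 gave the 3 a median of -2.36 (0 called, 2 at an unadjusted p under 0.05). The 3 genes of immature DN cells summed to 28.7 to 43.5 CPM in control and 21.8 to 30.3 CPM in cKO samples. All 3 were below 0, with a median log2 fold change of -0.71 (0 called by edgeR or DESeq2, and 2 at an unadjusted p under 0.05). The part of these cells in the result was not tested.

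In CD8 thymocytes the 7 genes had no common direction, and none was called. By edgeR, 11 of 11227 genes were called (0.0980%) and 0 of the 7, with 0 of the 7 at an unadjusted p under 0.05 and 0 called by DESeq2. The log2 fold changes lay between -0.11 for *Egr2* and 0.34 for *Nr4a1*, with a median of 0.12 against -0.0060 for all genes tested. For all 7 the genotypes overlapped.

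*Nr4a1* had 868, 733, 496, 457 and 425 CPM in the CD8 control samples and 982, 1059, 507, 791 and 448 CPM in the cKO samples. Its mean was 596 ± 195 CPM in control and 757 ± 275 CPM in cKO samples (SD, n = 5; exact permutation test, p = 0.302). The log2 fold change of 0.34 had a 95% interval from -0.16 to 0.83 (edgeR adjusted p = 0.979). With the replicate block, although CD8 numbers were not read as pairs, it was 0.32 with an interval from 0.11 to 0.53 (edgeR adjusted p = 0.347). *Nr4a3* had 316, 315, 196, 295 and 208 CPM in control and 362, 382, 248, 239 and 228 CPM in cKO samples, and the log2 change of 0.13 had an interval from -0.22 to 0.48.

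*Cd69* had 85.7, 122, 193, 236 and 140 CPM in control and 116, 154, 180, 306 and 89.7 CPM in cKO samples, the highest value being that of the library labelled cKO replicate 4. The log2 fold change of 0.12 had an interval from -0.46 to 0.71, and without that library it was -0.20. *Cd5* had 543, 502, 332, 295 and 377 CPM in control and 524, 482, 304, 338 and 345 CPM in cKO samples, with the samples numbered 1 and 2 highest in both genotypes. Its log2 fold change was -0.05, with an interval from -0.42 to 0.32.

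*Egr1* had 653, 776, 397, 328 and 346 CPM in CD8 control samples and 599, 677, 329, 579 and 327 CPM in cKO samples, and the log2 change of -0.0018 had an interval from -0.52 to 0.52. *Egr2* had 158, 153, 69.8, 55.4 and 65.0 CPM in control and 127, 135, 58.1, 90.0 and 58.0 CPM in cKO samples, with an interval from -0.74 to 0.53. As for *Cd5*, the samples numbered 1 and 2 were the highest of their group for both genes. *Egr3* varied least, with 132, 140, 116, 94.2 and 99.1 CPM in control and 129, 123, 103, 143 and 137 CPM in cKO samples, and the log2 change of 0.12 had an interval from -0.12 to 0.37. The estimates in DP cells lay below the CD8 intervals for *Cd69*, *Nr4a1*, *Nr4a3*, *Egr1* and *Egr3* and inside them for *Cd5* and *Egr2*, but have errors of their own.

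Exact permutation tests in CD8 cells gave p = 0.778 for *Cd69* and for *Cd5*, 0.571 for *Nr4a3*, 0.968 for *Egr1*, 0.746 for *Egr2* and 0.357 for *Egr3*, where 0.00794 is the smallest p possible. Leaving out any 1 library in turn moved the log2 fold change of *Cd69* between -0.20 and 0.32, that of *Cd5* between -0.17 and 0.090, that of *Egr1* between -0.13 and 0.21 and that of *Egr2* between -0.27 and 0.14, so that the sign of these 4 was not settled. Those of *Nr4a1*, *Nr4a3* and *Egr3* stayed above 0 without any 1 library, and that of *Egr3* was -0.13 with only the samples numbered 1 and 2.

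Of the other receptor-induced genes, edgeR called 0 of 23 in CD8 cells, with 1 at an unadjusted p under 0.05 and 0 called by DESeq2, and the median log2 fold change was 0.067. The mature single positive genes had a median of 0.055 (0 of 7 called by edgeR or DESeq2, and 1 at an unadjusted p under 0.05). The immediate early and heat shock genes had a median of -0.082 (0 of 10 called by either tool, and 3 at an unadjusted p under 0.05).

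Whether the change differed between the cell types was tested as an interaction in a model of all 4 groups. The estimate, the CD8 change minus the DP change, was above 0 for 7 of the 7, from 0.31 for *Cd5* to 0.96 for *Nr4a3*. By edgeR 13 of 12131 genes passed an adjusted p of 0.05 (0.107%) and 0 of the 7 were among them, while 3 of the 7 and 639 of all genes reached an unadjusted p under 0.05. For *Nr4a3* the difference had a standard error of 0.28 (edgeR adjusted p = 0.566), and for *Nr4a1* it was 0.95 (standard error 0.42, adjusted p = 0.897). In this test, made without a replicate block, none of the 7 passed. With the block in both cell types 33 of 12131 genes passed, *Nr4a1* and *Nr4a3* among them (edgeR adjusted p = 0.0227 and 0.0280). With a block in DP samples only, chosen after seeing the data, 9 of 12131 genes and 0 of the 7 passed. In the fit without a block, leaving out any 1 library moved the estimate of *Egr2*, 0.48, between 0.0042 and 1.02. That of *Cd5* moved between 0.19 and 0.44 and that of *Cd69*, 0.83, between 0.51 and 1.03.

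**Figure D3:**
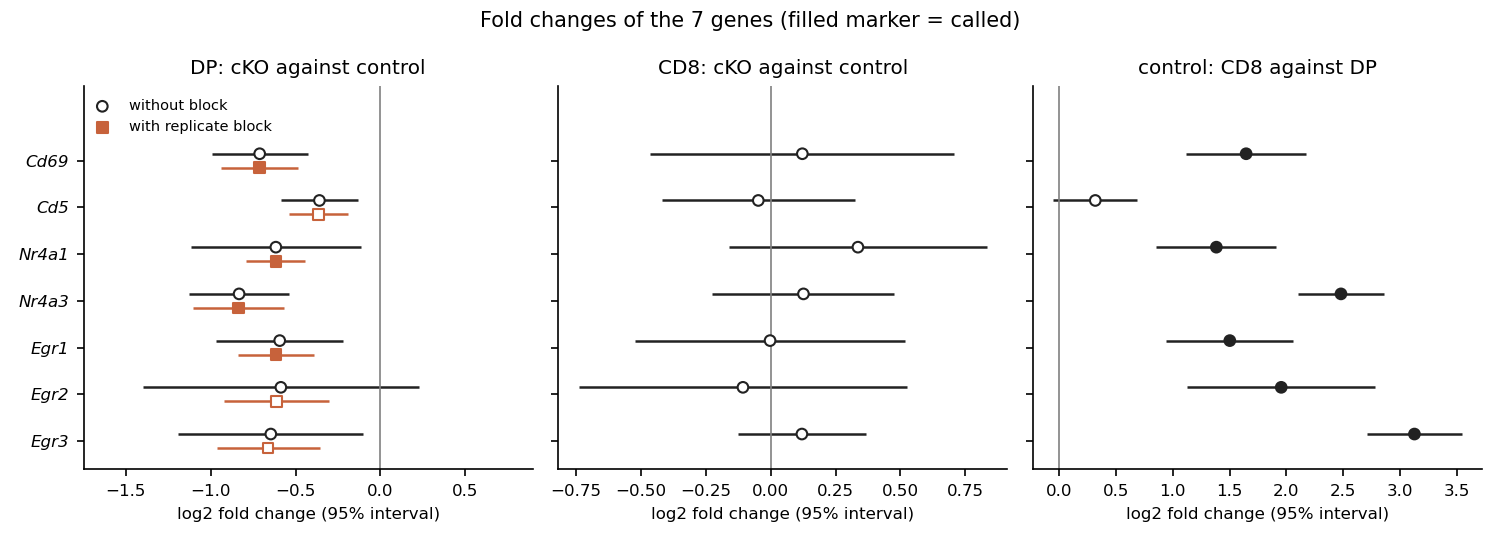
Log2 fold changes of the 7 genes with 95% intervals in the comparisons of cKO with control in DP cells, cKO with control in CD8 cells, and control CD8 with control DP cells, with circles for the edgeR fit without block, squares for the DP fit with the replicate block, and filled markers for called genes. In DP cells all 7 estimates lie below 0, in CD8 cells all intervals include 0, and 6 of the 7 were called higher in control CD8 than in control DP samples.

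Control CD8 and control DP samples differ in stage and in the table that holds them, and these cannot be told apart. The same control samples serve the comparisons above. In this comparison edgeR called 2588 of 11758 genes higher in CD8 samples, which is 22.0%, and 6 of the 7 were among them. The lowest CD8 sample was above the highest DP sample for these 6 and for 27.2% of all genes tested. The median log2 fold change was 1.65 for the 7 and -0.011 for all genes.

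The rise was largest for *Egr3*, from between 10.4 and 17.7 CPM in DP to between 94.2 and 140 CPM in CD8 control samples, which is 3.13 on the log2 scale (standard error 0.21, edgeR adjusted p = 2.29e-07). *Nr4a3* rose from 48.3 ± 4.96 to 266 ± 59.3 CPM (SD, n = 3 and 5; log2 change 2.48, standard error 0.19, edgeR adjusted p = 6.56e-07). Both nuclear receptor genes rose, *Nr4a1* by less, from 232 ± 64.9 to 596 ± 195 CPM (SD, n = 3 and 5; log2 fold change 1.38, edgeR adjusted p = 0.000898). *Egr2* rose from 26.3 ± 13.0 to 100 ± 50.8 CPM and *Egr1* from 179 ± 26.3 to 500 ± 202 CPM (SD, n = 3 and 5), which is 3.88-fold and 2.83-fold (edgeR adjusted p = 0.00179 and 0.000748). *Cd69* rose from 50.1 ± 6.06 to 155 ± 59.4 CPM (SD, n = 3 and 5; log2 fold change 1.65, edgeR adjusted p = 0.00026). For these 6 genes the exact permutation test gave p = 0.0357, and 3 samples against 5 allow no smaller value.

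*Cd5* was the exception. It had 333 ± 4.94 CPM (SD, n = 3) in DP and 409 ± 108 CPM (SD, n = 5) in CD8 control samples, the groups overlapped (exact permutation test, p = 0.286), and the log2 change was 0.32, with a standard error of 0.19 (edgeR adjusted p = 0.165). Its value differed between the sets of CD8 samples. With only the CD8 control samples numbered 1 and 2 the log2 fold change of *Cd5* was 0.66 and passed the threshold (edgeR adjusted p = 0.00197), and with only those numbered 3 to 5 it was 0.019 (adjusted p = 0.879). The other 6 genes were called in either case, with log2 fold changes of 1.06 to 3.35 for those numbered 1 and 2 and of 1.0 to 2.95 for those numbered 3 to 5.

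Set per length, as TPM, the order of the genes also differed between the cell types. In DP control samples the mean was highest for *Cd5* at 479 TPM, followed by *Nr4a1* at 276, *Egr1* at 174, *Cd69* at 92.2, *Egr2* at 26.8, *Nr4a3* at 25.7 and *Egr3* at 10.1 TPM. The ranges over samples overlapped for *Nr4a1* and *Egr1* and for *Egr2* and *Nr4a3*, and not for the other neighbours. In CD8 control samples *Nr4a1* led with 765 TPM, then *Cd5* with 629, *Egr1* with 519, *Cd69* with 302, *Nr4a3* with 150, *Egr2* with 108 and *Egr3* with 92.1 TPM. There the range of every gene overlapped that of the next.

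**Figure D4:**
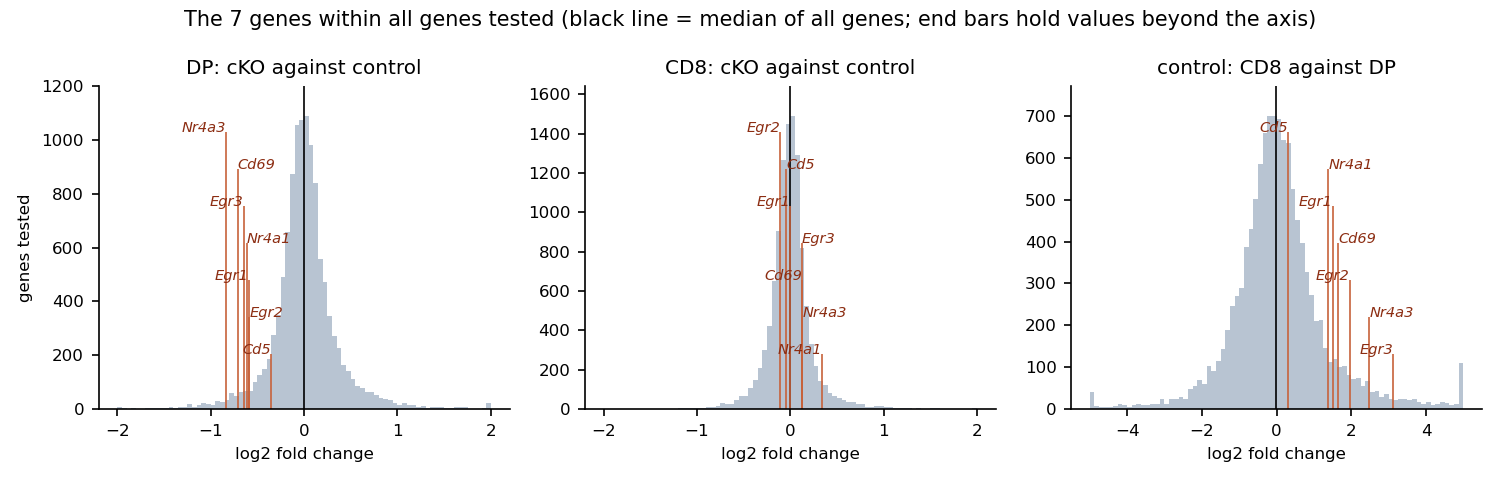
Histograms of the log2 fold changes of all genes tested, with the 7 genes marked by lines and the median of all genes in black, for cKO against control in DP cells, cKO against control in CD8 cells and control CD8 against control DP cells. The 7 lie on the left flank in DP cells, near the centre in CD8 cells and, apart from *Cd5*, on the right flank between control CD8 and DP samples.

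Of the other receptor-induced genes, 14 of 23 were called higher and 3 lower in CD8 than in DP control samples, where edgeR called 22.3% of all genes tested lower. The largest log2 fold changes were those of *Tagap*, a GTPase activator gene, with 5.01, the transcription factor gene *Irf4* with 3.11, the co-stimulatory receptor gene *Tnfrsf9* with 2.51 and the related receptor gene *Nr4a2* with 2.49 (edgeR adjusted p = 4.63e-07, 0.000195, 2.29e-07 and 0.000171). *Spry1*, *Id3* and *Itm2a* were lower, with -1.53, -0.97 and -1.33 (edgeR adjusted p = 0.0239, 0.000359 and 6.22e-05), and are named because they were few, after their values were seen. DESeq2 did not call *Spry1* (adjusted p = 0.0534). All 7 mature single positive genes were called higher, led by *S1pr1*, the receptor for exit from the thymus, with a log2 fold change of 7.76, and *Klf2*, its activator, with 6.24 (edgeR adjusted p = 1.56e-08 and 6.99e-07), and 8 of the 9 DP stage genes were called lower. Of the immediate early and heat shock genes 5 of 11 were called higher, led by *Hspa1a* and *Hspa1b* with 5.51 and 5.33 (edgeR adjusted p = 0.000602 and 0.00033), and 1 lower. Their summed level was 2807 to 4884 CPM in CD8 control samples, and their part in the result was not tested.

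Markers of other cells also differed between control CD8 and control DP samples. By edgeR 4 of 4 macrophage and monocyte genes tested were called lower in CD8 samples, with a median log2 fold change of -3.23, and the list of 5 summed to 2.2 to 5.9 CPM there, with *Itgam* the most abundant and 0 to 2 at 0. All 3 gamma-delta and innate-like T cell genes were called higher, with a median of 2.34, and none was at 0. They summed to 2.1 to 4.5 CPM in DP and 9.1 to 20.6 CPM in CD8 samples. Their means in CD8 control samples were 4.35 CPM for *Zbtb16*, 4.15 CPM for *Klrb1c* and 3.96 CPM for *Sox13*. Of the 3 genes of immature DN cells, *Cd44*, an adhesion receptor gene, and *Kit*, which encodes a growth factor receptor, were called higher, with log2 fold changes of 1.72 and 3.64, and *Il2ra*, a cytokine receptor gene, lower, with -0.94 (edgeR adjusted p = 1.88e-06, 2.30e-07 and 0.0241). They summed to 91.9 to 130 CPM in CD8 samples, with *Cd44* the most abundant and none at 0. *Epcam* was called lower, with a log2 fold change of -1.87 (edgeR adjusted p = 0.00106), and 0 of 3 B cell and 0 of 3 dendritic cell genes tested were called. The part of these cells in the rise of the 6 genes was not tested.

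Within groups the 7 genes did not vary as a unit. In CD8 samples *Cd5*, *Nr4a1*, *Nr4a3*, *Egr1* and *Egr2* were highest in the libraries numbered 1 and 2 of both genotypes, those with more *Cd4* and *Rag1*, whereas *Cd69* was lowest in control replicate 1 and highest in replicate 4 of both genotypes. In DP samples *Cd69*, *Egr1*, *Egr2* and *Egr3* were highest in the libraries numbered 1, those with least *Fos* and *Jun*, and *Nr4a1* was lowest there.

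**Figure D5:**
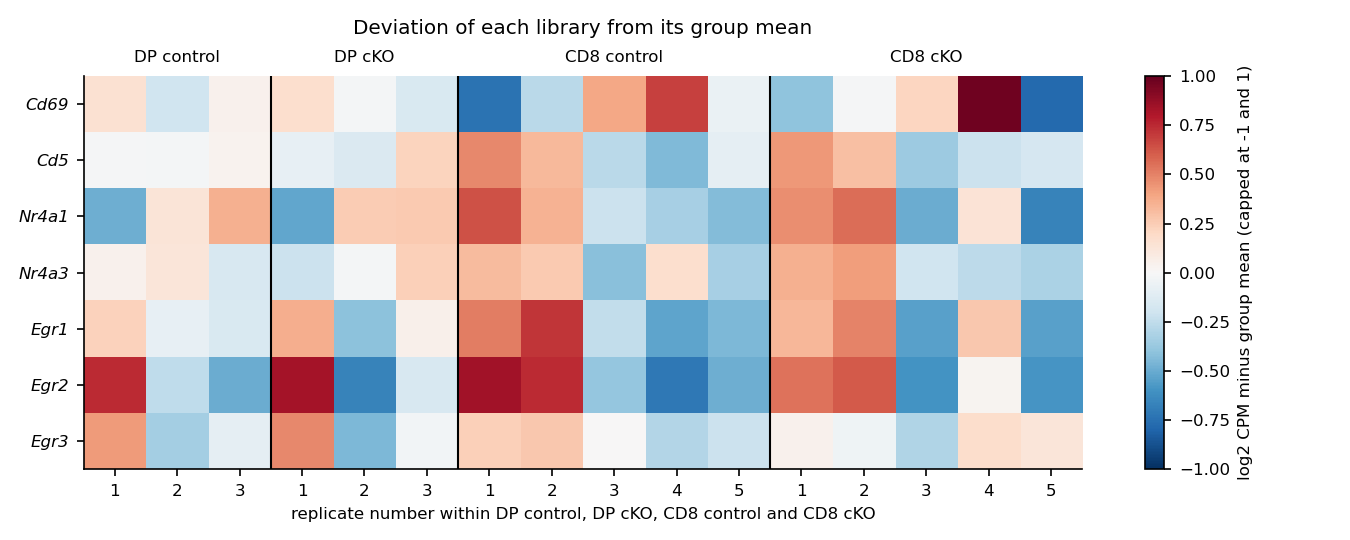
Deviation of log2 CPM from the mean of its own group for the 7 genes (rows) in each of the 16 libraries (columns, numbered within DP control, DP cKO, CD8 control and CD8 cKO), with red above and blue below the mean. The rows of *Cd5*, *Nr4a1*, *Nr4a3*, *Egr1* and *Egr2* are red in the CD8 libraries numbered 1 and 2, and the row of *Cd69* runs the other way in control replicate 1.

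For each of the 7 the genes with the most similar deviations over the 16 samples were sought among 12130 others, as a description, since the samples fall into the sets above. They were *Socs3*, *Nrbf2* and *Coq10b* for *Cd69* (Pearson's r from 0.863 to 0.878), *Tox2*, *Hivep3* and *Midn* for *Cd5* (0.957 to 0.959), *Zfp36l1*, *Lef1* and *Phc1* for *Nr4a1* (0.932 to 0.950) and *Pkig*, *Pafah2* and *Cyb5r1* for *Nr4a3* (0.872 to 0.881). For *Egr1* they were *Zbtb7a*, *Egr2* and *Zfp710* (0.916 to 0.948), for *Egr2* they were *Egr1*, *Lig4* and *Tet3* (0.922 to 0.932), and for *Egr3* they were *Phf8*, *Zfp708* and *Lipa* (0.930 to 0.969). Only *Egr1* and *Egr2* were among each other's closest genes.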

How the data were processed

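RNA-seq was compared between 16 samples in 4 groups, DP control, DP cKO, CD8 control and CD8 cKO. The authors deposited 2 tables of raw counts per gene, as made by featureCounts, with a Length column that gives the exonic length of each gene in bases. Per the submitters' processing notes, reads were trimmed with fastp 0.13.1, aligned to mm10 with HISAT2 2.1.0 and counted with featureCounts 1.6.1. The 24974 genes found in both tables were scaled together by TMM for CPM, and TPM was computed from the counts and the Length column. The counts are fragments without molecular identifiers, so they are not independent molecules.

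Genes with low counts were removed with edgeR's filterByExpr. Each comparison was tested with edgeR 4.0.16 (quasi-likelihood F test, R 4.3.3) with p-values adjusted by Benjamini and Hochberg's method, and a call required an adjusted p below 0.05, at least a 1.5-fold difference and a mean of 1 TPM or more over the samples compared. The difference of the cKO changes was called at an adjusted p under 0.05. Log2 CPM used a prior count of 2. Intervals of fold changes are at the 95% level. Exact 2-sided permutation tests of normalized CPM used SciPy 1.17.1 in Python 3.11.15, and figures were drawn with matplotlib 3.10.9. The edgeR procedure was tested on simulated data.

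Alternatives were RLE scaling, DESeq2 1.42.0 (the test of the study's methods), no filter or at least 10 counts in every sample, all 4 groups in 1 fit, a replicate block, no limit on TPM or fold change, leaving out each library, and leaving out both CD8 samples numbered 1. Those that restrict samples by the sets seen in the data, DESeq2 with a block and a block in DP samples only were added after seeing the data. Whether numbers pair samples was read from the data, by correlating deviations from group means over genes. The same-numbered DP samples gave 0.643, 0.120 and 0.290, each over the limit of 0.1 set for reading numbers as pairs, and the block was therefore reported for DP. Control replicates 2 and 3 correlated more with cKO replicates 3 and 2 (0.325 and 0.297) than with their own number.

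The members and lists were chosen with earlier results of these data known. The rule for named genes was, for each list, called genes up to the 4 with the largest log2 fold change in size, and for each member the 3 genes most like it. Between control CD8 and control DP samples it was not kept for every list. Fewer or none of the called genes were named from some lists, and more from the other receptor-induced genes. Promoter sequences are from RefSeq for GRCm38.p6. Motifs were searched on both strands.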

Additional observations from a re-analysis of the deposited data

Results flagged for a closer look

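CD8 control replicate 1 had counts on 17741 genes and the other 4 CD8 control samples on 13708 to 14194. Its gap to the nearest of them was 0.879 of the range of the group, above the limit of 0.71 for 5 samples. Of 20 groups of 5 values examined in this way, 1 passed the limit, and chance passes about 1 in 20. Without both CD8 samples numbered 1, edgeR called 5 genes and 0 of the 7 between the CD8 genotypes. The cause was not tested.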

How the results depend on the processing

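In DP cells the number of genes called between the genotypes, 17, was 159 with DESeq2, 74 with no filter on low counts, 42 with all 4 groups in 1 fit and 131 with the replicate block. Chosen after seeing the data, it was 72 without both samples numbered 1 and 204 with DESeq2 and the block. Leaving out each library gave 0 to 8. The number of the 7 genes called, 0, was 2 with DESeq2, 1 with no filter (*Nr4a3*, edgeR adjusted p = 0.0245), 4 with the block and 5 with DESeq2 and the block. It was 0 without any 1 library. All 7 log2 fold changes stayed below 0 under each alternative tried. Apart from the fewer samples where libraries were left out, the cause was not tested.

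The replicate numbers were read as pairs in DP cells only. CD8 samples with the same number had correlations of 0.0905 to 0.366, the lowest under the limit of 0.1, and, as in DP cells, not every sample correlated best with its own number. With the block in both cell types the difference of the cKO changes passed an adjusted p of 0.05 for *Nr4a1* (0.93, edgeR adjusted p = 0.0227) and *Nr4a3* (0.96, adjusted p = 0.0280), whereas with a block in DP samples only, chosen after seeing the data, 9 genes and 0 of the 7 passed. The number of genes whose changes differed, 13, was 35 with DESeq2 and 33 with the block in both, and 0 to 11 without any 1 library.

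In CD8 cells the number of genes called between the genotypes, 11, was 44 with DESeq2, 31 with the block and 5 without both samples numbered 1. Chosen after seeing the data, it was 5 with only samples numbered 3 to 5, 3 with only those numbered 1 and 2 and 41 with DESeq2 and the block. Leaving out each library gave 4 to 20, with 4, 6, 7 and 20 without control replicates 3 and 5 and cKO replicates 3 and 4. None of the 7 was called under any alternative tried, nor by DESeq2, and by edgeR 0 of the 7 reached an unadjusted p under 0.05 without the block and 1 with it (*Nr4a1*, adjusted p = 0.347).

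Directions that changed were all in CD8 cells and far from the threshold. The log2 fold change of *Egr1*, -0.0018, became 0.00030 with RLE scaling, 0.00095 with DESeq2, 0.0093 with no filter, 0.022 with the block and 0.059 without both samples numbered 1. Chosen after seeing the data, it was 0.22 with only samples numbered 3 to 5 and 0.024 with DESeq2 and the block. That of *Egr2* became 0.0038 without both samples numbered 1 and 0.13 with only those numbered 3 to 5, and that of *Egr3* became -0.13 with only those numbered 1 and 2. Leaving out each library gave -0.20 to 0.32 for *Cd69*, -0.17 to 0.090 for *Cd5*, -0.13 to 0.21 for *Egr1* and -0.27 to 0.14 for *Egr2*. The cause was not tested.

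Between control CD8 and control DP samples 4658 to 6949 genes were called under the alternatives and 4854 to 5281 without any 1 library, and 6 or 7 of the 7.

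With 3 samples per group in DP cells, no permutation test can pass 0.05. The counts cover whole genes, so that loss of the floxed exons of *Tox4* cannot be read from them, and bulk counts do not separate a change in the share of cells that express a gene from a change within them. CD8 and DP samples come from separate tables.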
